A study of Mus with 16 samples.

Results

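The genes described here are 7 splicing factors of the mouse brain: *Srrm3*, its close relative *Srrm4*, the 2 broadly expressed family members *Srrm2* and *Srrm1*, and the neuronal regulators *Nova1*, *Rbfox1*, and *Ptbp2*. *Srrm3* was chosen because its expression differed between *Kdm5c* mutants and wild-type (WT) mice of both sexes in these same libraries, and the other 6 because of their known part in neuronal splicing. All 7 were among the 17866 genes that passed the filter on low counts, of 54219 in the count table. Poly(A) RNA was sequenced from the forebrain (hippocampus and cortex) of 16 mice at postnatal day 6 (P6). They were 4 WT males, 4 males in which the X-linked *Kdm5c* was deleted from their only copy (*Kdm5c*-KO), 4 WT females, and 4 females with a deletion on 1 of their 2 copies (*Kdm5c*-HET). *Kdm5c* encodes a demethylase of histone H3 lysine 4, and the comparisons ask how its loss alters gene expression in each sex. The KO allele came from Cre-mediated deletion of part of the gene, and all 16 animals came from a line of mixed C57BL/6J and 129S1/SvImJ descent. In this bulk tissue, fewer cells of a type and less RNA per cell cannot be told apart.

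Splicing joins exons into mature mRNA, and neurons include exons that other cells skip. SRRM4 (also called nSR100) and SRRM3 are serine- and arginine-rich proteins that promote inclusion of neuronal microexons, very short exons in genes for synaptic, vesicle, and cytoskeletal proteins. SRRM1 and SRRM2 are broadly expressed relatives that act as general splicing co-activators, SRRM2 being a main scaffold of nuclear speckles, the bodies where splicing factors gather. NOVA1 and RBFOX1 bind RNA next to regulated exons and can raise or lower inclusion depending on where they bind. PTBP2 is the neuronal form of the polypyrimidine tract-binding protein and mostly represses exons until neurons mature.

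*Srrm3* (ENSMUSG00000039860) lies on chromosome 5 (135806860 to 135874773 in GRCm38.p6, the assembly of mm10), with no other RefSeq gene over its span. *Srrm4* (ENSMUSG00000063919) is on the same chromosome (116439268 to 116592562), where the long noncoding RNA *Srrm4os* overlaps it. *Srrm2* (ENSMUSG00000039218) spans 23790527 to 23824741 on chromosome 17 and overlaps *Gm52285*, *Mir5125*, and *Elob*, and *Srrm1* (ENSMUSG00000028809) spans 135320484 to 135353277 on chromosome 4 with no overlapping gene. *Nova1* (ENSMUSG00000021047, chromosome 12, 46697895 to 46819480) and *Ptbp2* (ENSMUSG00000028134, chromosome 3, 119718741 to 119784647) have none either, while 5 long noncoding RNA genes lie over *Rbfox1* (ENSMUSG00000008658, chromosome 16, 5884793 to 7412480). The strand setting of the counting is not given in the sources used here, so the counts of *Srrm4*, *Srrm2*, and *Rbfox1* are uncertain to the extent of those overlaps. Exon lengths were not used here, so levels are compared between animals for a gene and not between genes.

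Total counts per animal ranged from 21513783 to 30063352, and the 7 genes had between 1115 counts (*Nova1* in WT male 1E) and 19261 counts (*Srrm2*) per animal. The sampling error of a count was thus at most 2.99% for any of the 7. Values below are CPM, each gene's counts relative to the normalized library total (TMM), and an animal is named by the number and letter of its sample label. The letter is D for 3 WT and 2 *Kdm5c*-KO males and for 2 WT females and 1 *Kdm5c*-HET female, and E for the others, and the labels do not say what it stands for. Several litters were sampled and the RNA was handled in a single batch, as the study describes. The neuronal marker *Rbfox3* was expressed in every animal, between 216 and 275 CPM. Of the 35 marker genes listed for the cell types of this tissue, only 8 could be paired with an identifier here, so the tissue could be checked only in part, and none of these 8 was at 0 in any animal.

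*Srrm3*, a microexon activator, was higher in the mutants of both sexes, which is what it was chosen for. WT males 1E, 2D, 5D, and 7D had 73.4, 75.5, 73.7, and 73.4 CPM. *Kdm5c*-KO males 2E, 3E, 4D, and 6D had 109, 109, 105, and 99.6 CPM, so the lowest mutant stood well above the highest WT male. WT females 1D, 3D, 4E, and 5E had 78.4, 76.6, 77.5, and 79.5 CPM. *Kdm5c*-HET females 6E, 8E, 9D, and 9E had 86.2, 92.0, 88.0, and 90.2 CPM. The groups thus came in the order WT male, WT female, *Kdm5c*-HET female, and *Kdm5c*-KO male, and the ranges of no 2 groups overlapped. Since *Srrm3* was chosen on these animals, nothing is read from this, and the share of all genes separated so was not computed.

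The group means of *Srrm3* were 74.0 ± 0.995 CPM in WT and 106 ± 4.30 CPM in *Kdm5c*-KO males, and for the females 78.0 ± 1.27 (WT) and 89.1 ± 2.56 CPM (*Kdm5c*-HET) (SD, n = 4 in each group). The difference between genotypes was 42.7% in males (Log2FC = 0.51, 95% interval 0.43 to 0.59) and 14.2% in females (Log2FC = 0.19, 0.11 to 0.27). These contrasts chose the gene, so no test is given for them or for their difference, and the intervals are a description only. The Log2FC of *Srrm3* in females was 0.375 of that in males, and the male value exceeded the female one by 0.32 (0.21 to 0.43). Leaving out any 1 animal gave a male Log2FC from 0.50 to 0.54 and a female one from 0.17 to 0.21. Within the animals of letter D it was 0.46 in males and 0.18 in females, and within letter E 0.57 and 0.19, where *Kdm5c*-HET females of letter D and WT males of letter E are single animals.

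**Figure D1:**
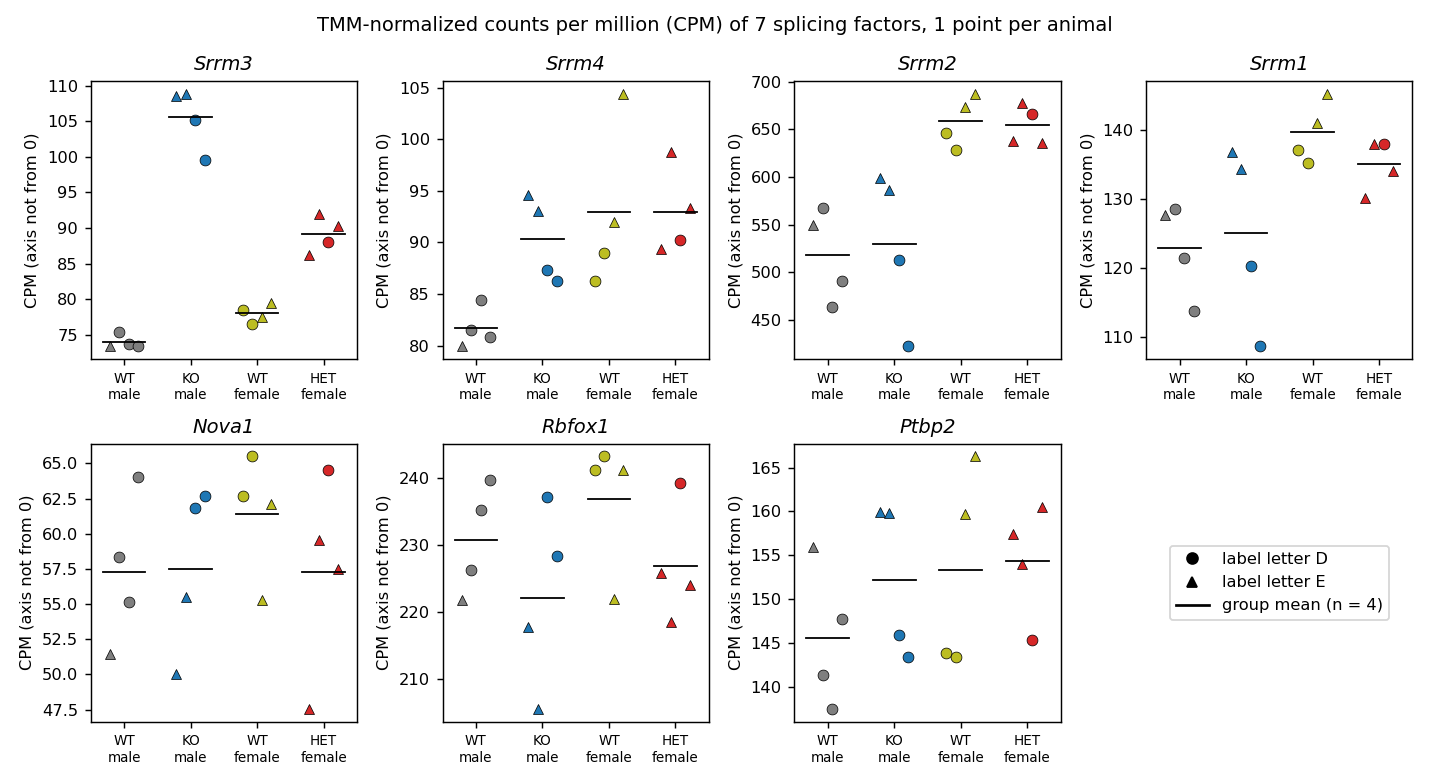
CPM of the 7 splicing factors (vertical axes, not from 0) in the 4 groups, with 1 point per animal, circles for label letter D, triangles for letter E, and a bar at the group mean (n = 4). *Srrm3*, chosen on these animals, separates all 4 groups. *Srrm2* and *Srrm1* are higher in females of either genotype than in most males. In the lower row circles and triangles are apart within each group.

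The 7 genes differed in how much they varied between animals of a group. The within-group standard deviation on the log2 CPM scale was 0.0393 for *Srrm3*, a value that its choice as a changed gene favours and from which nothing is read. It was 0.0661 for *Rbfox1*, 0.0779 for *Srrm4*, 0.0847 for *Ptbp2*, 0.0924 for *Srrm1*, 0.1396 for *Srrm2*, and 0.147 for *Nova1*. The median was 0.0680 over the 4015 genes with a mean from 58.4 to 590.4 CPM, the levels of *Nova1* and *Srrm2*, and 94.1% and 93.1% of these genes had a smaller spread than *Nova1* and *Srrm2*.

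Among the genes with a symbol whose log2 CPM followed *Srrm3* most closely over the 16 animals were *Tnxb* (Pearson's r = 0.976), *Rasip1* (0.965), *Zfp783* (0.964), and *Scarf2* (0.963). They held ranks 2 to 5 among the 17865 other genes tested. *Tnxb* encodes an extracellular matrix tenascin, *Rasip1* a Ras-interacting protein of endothelial cells, *Zfp783* a zinc finger protein, and *Scarf2* a scavenger receptor. *Scarf2* went from 6.89 CPM in WT males to 40.7 in *Kdm5c*-KO males, and from 6.70 in WT females to 19.5 in *Kdm5c*-HET females (group means). *Rasip1* went from 23.3 to 38.3 CPM in males and from 23.0 to 29.5 in females. Other RefSeq genes overlap *Tnxb*, *Rasip1*, and *Zfp783*. The 16 animals share the 4 groups that chose *Srrm3*, so these correlations are a description. Only genes that the study's own list of changed genes pairs with a symbol could be named, apart from the members.

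None of the 6 other splicing factors tracked *Srrm3* in this way. Their r with *Srrm3* was 0.41 for *Srrm4*, 0.28 for *Ptbp2*, -0.036 for *Srrm1*, -0.057 for *Srrm2*, -0.14 for *Nova1*, and -0.50 for *Rbfox1*. *Srrm4* ranked 2112 of 17865, the highest of the 6. *Srrm3* was chosen on the 4 groups that these animals form, so these values too are a description.

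*Srrm4*, the other microexon activator, was expressed at 79.9, 81.5, 84.5, and 80.8 CPM in WT males 1E, 2D, 5D, and 7D. *Kdm5c*-KO males 2E, 3E, 4D, and 6D had 94.6, 93.1, 87.3, and 86.3 CPM. Every *Kdm5c*-KO male was above every WT male, by a smaller margin than for *Srrm3*. The Log2FC was 0.14 (standard error 0.0540, 95% interval 0.03 to 0.26), or 10.6% (2.23% to 19.5%), and it did not pass the threshold of q under 0.1 (q = 0.172 by the quasi-likelihood test of edgeR, adjusted for all genes tested). The exact two-sided permutation test of 4 animals against 4 gave p = 0.0286, the smallest it allows, and 8.91% of all genes tested had male groups that did not overlap. Without WT female 5E, whose *Srrm4* was the highest of all animals, the fit gave a Log2FC of 0.15 with q = 0.0779. Leaving out each of the other 15 animals gave q from 0.122 to 0.388.

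In females, *Srrm4* overlapped between the genotypes. WT females 1D, 3D, 4E, and 5E had 86.3, 89.0, 92.0, and 104 CPM, and *Kdm5c*-HET females 6E, 8E, 9D, and 9E had 89.4, 98.8, 90.2, and 93.4 CPM. The group means were 92.9 ± 8.01 and 92.9 ± 4.25 CPM (SD, n = 4 each), and the 95% interval of the Log2FC was -0.11 to 0.11 (q = 1). *Kdm5c*-KO males, with a mean of 90.3 ± 4.10 CPM, lay within the range of the females, while WT males, with 81.7 ± 1.97 CPM, lay below it. The response in males exceeded that in females by 0.14 on the log2 scale, with an interval of -0.02 to 0.30 and q = 0.778 for the sex by genotype interaction.

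**Figure D2:**
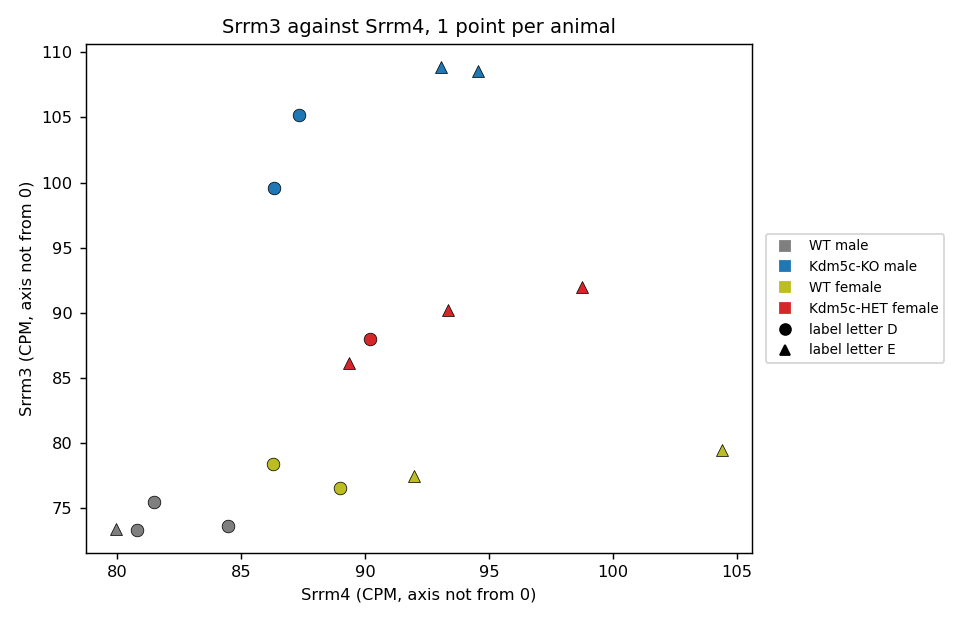
*Srrm3* (vertical axis, CPM) against *Srrm4* (horizontal axis, CPM) in the 16 animals, coloured by group, with circles for label letter D and triangles for letter E; neither axis starts at 0. The mutants of each sex lie above the WT animals of that sex on the *Srrm3* axis, whereas on the *Srrm4* axis only WT males stand apart, at 79.9 to 84.5 CPM.

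The number of *Srrm3* counts per *Srrm4* count, which does not depend on library size, was 0.906 ± 0.0240 in WT males and 1.17 ± 0.0252 in *Kdm5c*-KO males (SD, n = 4 each). In WT females it was 0.843 ± 0.0613, and in *Kdm5c*-HET females 0.959 ± 0.0191 (SD, n = 4 each). Each *Kdm5c*-HET female (0.932 to 0.976) exceeded each WT animal of either sex (0.762 to 0.926), and each *Kdm5c*-KO male (1.15 to 1.204) exceeded each *Kdm5c*-HET female. The ratio compares animals and not the amounts of the 2 mRNAs, and since it rests on *Srrm3* it is given without a test.

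The general co-activators *Srrm2* and *Srrm1* overlapped between *Kdm5c*-KO and WT males. *Srrm2* had 549.7, 567, 463, and 491 CPM in WT males 1E, 2D, 5D, and 7D and 599, 587, 513, and 422 CPM in *Kdm5c*-KO males 2E, 3E, 4D, and 6D. The lowest and the highest of these 8 values were both from *Kdm5c*-KO males. *Srrm1* had 128, 129, 121, and 114 CPM in the same WT males and 137, 134, 120.2, and 109 CPM in the same *Kdm5c*-KO males. The 2 genes thus ordered the *Kdm5c*-KO males alike, 6D lowest and 2E highest. Their Log2FC was 0.034 (-0.14 to 0.20, q = 0.891) for *Srrm2* and 0.025 (-0.10 to 0.15, q = 0.889) for *Srrm1* by edgeR's test, and either changed sign in some of the alternatives.

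*Nova1*, *Rbfox1*, and *Ptbp2* overlapped between the genotypes in both sexes. *Nova1* had 51.5, 58.4, 55.2, and 64.01 CPM in WT males 1E, 2D, 5D, and 7D and 50.02, 55.5, 61.8, and 62.7 CPM in *Kdm5c*-KO males 2E, 3E, 4D, and 6D. Its Log2FC in males was 0.0065 (95% interval -0.18 to 0.19, q = 0.983 by edgeR's test). On the linear scale the interval runs from -11.6% to 14.1%. *Rbfox1* had 222, 226, 235, and 239.7 CPM in these WT males and 218, 206, 237, and 228 CPM in the *Kdm5c*-KO males, a Log2FC of -0.055 (-0.15 to 0.04, q = 0.615). *Ptbp2* had 156, 141, 137, and 148 CPM in WT and 159.9, 159.8, 146, and 143 CPM in *Kdm5c*-KO males, a Log2FC of 0.065 (-0.05 to 0.18, q = 0.621). The 2 *Kdm5c*-KO males of letter E had the lowest *Rbfox1* and the highest *Ptbp2* of the 8 males.

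Of the 6 factors other than *Srrm3*, 0 passed q under 0.1 in *Kdm5c*-KO males, by edgeR as by DESeq2, where 5.24% of all genes tested passed. This share is edgeR's, and DESeq2 called 712 genes higher and 371 lower. *Srrm4* alone had an unadjusted p under 0.05 in edgeR's test, against 16.5% of all genes. The median Log2FC of the 6 was 0.030, beside -0.0072 over all genes tested.

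**Figure D3:**
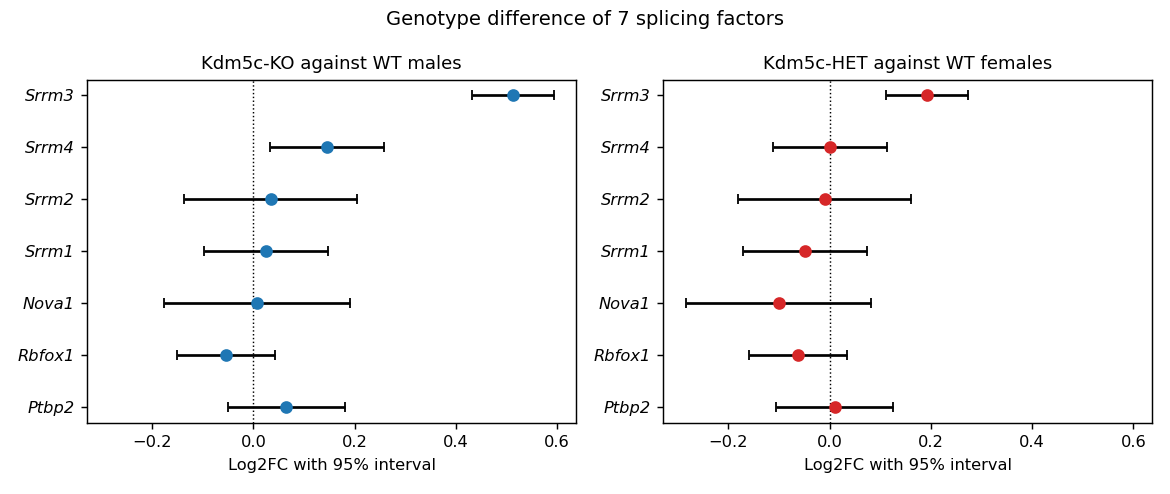
Log2FC of each splicing factor (points) with its 95% interval (bars) in *Kdm5c*-KO against WT males on the left and *Kdm5c*-HET against WT females on the right; the dotted line marks no difference. *Srrm3*, chosen on these contrasts, stands at 0.51 and 0.19, the male interval of *Srrm4* lies above 0, and the intervals of the other 5 genes include 0 in both sexes.

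In *Kdm5c*-HET females, 0 of the 6 passed q under 0.1 with either tool and 0 had an unadjusted p under 0.05, against 0.509% and 6.49% of all genes tested. These shares are edgeR's, and DESeq2 called 123 genes higher and 14 lower. *Srrm2* had 646, 628, 674, and 688 CPM in WT females 1D, 3D, 4E, and 5E and 638, 678, 666, and 636 CPM in *Kdm5c*-HET females 6E, 8E, 9D, and 9E. *Srrm1* had 137, 135, 141, and 145 CPM in the former and 130.1, 138, 138, and 134 CPM in the latter. The genotypes overlapped for both genes. *Nova1* ranged from 55.3 to 65.5 CPM in WT and from 47.5 to 64.5 CPM in *Kdm5c*-HET females, *Rbfox1* from 222 to 243 and from 218 to 239 CPM, and *Ptbp2* from 143 to 166 and from 145 to 160.5 CPM. The Log2FC of the 6 lay between -0.10 for *Nova1* and 0.010 for *Ptbp2*, with q from 0.950 to 1 and a median of -0.029, beside -0.0008 over all genes. Only *Srrm3* had female groups that did not overlap, which 4.47% of all genes had, and it was chosen on this contrast.

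The difference between the responses of the sexes was tested for the same 6 genes. None passed q under 0.1 (q from 0.778 to 0.993 by edgeR) and 0 had p under 0.05, against 0.0392% and 6.37% of all genes. DESeq2 called 0 of the 6 as well, where over all genes it called 20 higher and 6 lower. For the mean of both genotype contrasts, which uses all 16 animals, 0 of the 6 passed with either tool and 0 had p under 0.05, against 5.12% and 15.2% of all genes by edgeR. DESeq2 called 709 genes higher and 335 lower in this mean. In edgeR's fit *Srrm4* had a mean Log2FC of 0.073 (-0.0066 to 0.15, q = 0.380) and *Rbfox1* one of -0.059 (-0.13 to 0.0098, q = 0.425). For *Srrm4* the call again turned on WT female 5E, without which q was 0.0855 and the Log2FC 0.10.

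The sex difference among WT animals was not used to choose any of the 7. *Srrm2* was higher in WT females, between 628 and 688 CPM, than in WT males, between 463 and 567 CPM. The mean was 659 ± 26.7 against 518 ± 48.8 CPM (SD, n = 4 each). This is a Log2FC of 0.35 (standard error 0.0818, interval 0.18 to 0.52), or 27.2%, with q = 0.0375 by edgeR's quasi-likelihood test. *Srrm4* was higher as well, by 0.18 (standard error 0.0540, interval 0.07 to 0.30, q = 0.0779), or 13.6%. Its WT females had 86.3 to 104 CPM and its WT males 79.9 to 84.5 CPM.

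*Srrm1* came close to the threshold without passing it, with 135 to 145 CPM in WT females, 114 to 129 CPM in WT males, and a Log2FC of 0.18 (standard error 0.0588, interval 0.06 to 0.31, q = 0.103). *Srrm3* had a Log2FC of 0.08 (standard error 0.0389, interval -0.01 to 0.16, q = 0.312), and its WT females at 76.6 to 79.5 CPM were all above its WT males at 73.4 to 75.5 CPM. For *Srrm2*, *Srrm4*, and *Srrm1* too, no WT male reached the lowest WT female (exact permutation test, two-sided, p = 0.0286 for each). This is the smallest p possible, and 7 genes were tested. *Srrm3* was chosen on contrasts that hold these WT animals, which favours a narrow spread. Nothing is therefore read from its lack of overlap, and no exact p is given for it. *Nova1* (Log2FC = 0.10, q = 0.579), *Rbfox1* (0.038, q = 0.715), and *Ptbp2* (0.074, q = 0.510) overlapped between the sexes.

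Thus 2 of the 7 factors passed q under 0.1 between WT females and WT males, where 5.0% of all genes passed and 2.59% were higher in females. Before adjustment, *Srrm2*, *Srrm4*, and *Srrm1* had p under 0.05, against 18.1% of all genes. *Srrm2*, *Srrm4*, and *Srrm1* had WT females and WT males that did not overlap, against 10.6% of all genes, 5.24% being higher in females. *Srrm3* is left out of this comparison because its choice favours a narrow spread. Within the animals of letter D alone, the WT female to male difference in log2 CPM was 0.33 for *Srrm2*, 0.17 for *Srrm1*, 0.09 for *Srrm4*, and 0.06 for *Srrm3*. Within letter E, with a single WT male, the differences were 0.31, 0.16, 0.29, and 0.10. With the letter as a covariate, q was 0.0101 for *Srrm2*, 0.0445 for *Srrm4*, and 0.0563 for *Srrm1*.

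These calls depended on the fit and on single animals. *Srrm4* lost its call when only the 8 WT animals were fitted (q = 0.115). *Srrm1* gained one in that fit (q = 0.0770), by DESeq2 (q = 0.0385), with DESeq2's size factors (q = 0.0966), and without the filter on low counts (q = 0.0261) or with a minimum of 10 counts in each animal (q = 0.0825). *Srrm2* lost its call without WT male 5D (q = 0.146), WT male 7D (q = 0.102), or WT female 5E (q = 0.131). *Srrm4* lost its call without any of the 4 WT males (q from 0.125 to 0.173), without WT female 4E (q = 0.135) or 5E (q = 0.276), and without *Kdm5c*-HET female 9E (q = 0.101). *Srrm1* gained a call without *Kdm5c*-KO male 2E (q = 0.0836), 3E (q = 0.0895), or 6D (q = 0.0427). The Log2FC of the 4 *Srrm* genes remained positive in every one of these fits. Over the fits that left out 1 animal each, the number of genes higher in WT females ranged from 35 without WT female 5E to 672. Blood markers moved with this contrast, the sum of *Hbb-bs* and *Hba-a1* being 107 to 133 CPM in WT males and 82.4 to 96.7 CPM in WT females, and *Hba-a1* was the single marker of 8 that passed (Log2FC = -0.40, q = 0.0417). Their part in the difference of *Srrm2* and *Srrm4* was not tested.

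**Figure D4:**
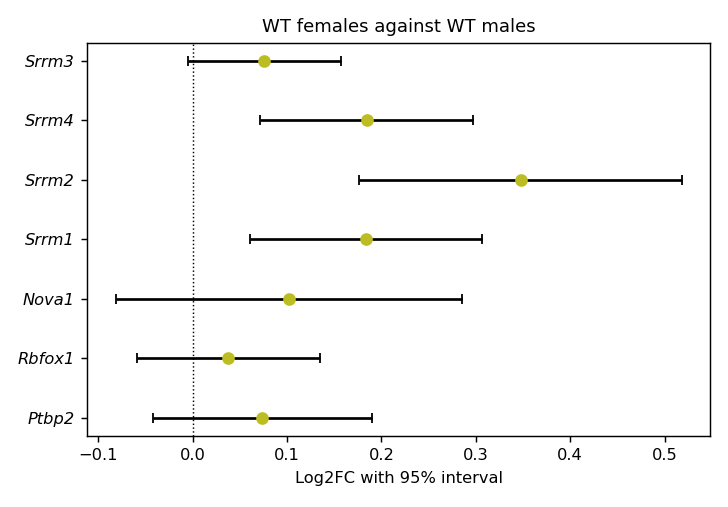
Log2FC of WT females against WT males for each splicing factor (points) with its 95% interval (bars); positive values are higher in females and the dotted line marks no difference. *Srrm2* has the largest difference, 0.35, and the intervals of *Srrm3*, *Nova1*, *Rbfox1*, and *Ptbp2* include 0.

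The mean of *Srrm2* was 655 ± 20.5 CPM in *Kdm5c*-HET females beside 659 ± 26.7 CPM in WT females, and 530.2 ± 81.2 CPM in *Kdm5c*-KO males beside 518 ± 48.8 CPM in WT males (SD, n = 4 each). All 8 females were above all 8 males for *Srrm2*, whose highest male was *Kdm5c*-KO male 2E at 599 CPM. The share of all genes that separate the 8 females from the 8 males was not computed. For *Srrm1* the lowest female, *Kdm5c*-HET female 6E at 130.1 CPM, lay below the 2 *Kdm5c*-KO males of letter E at 137 and 134 CPM. For *Srrm4* all 4 *Kdm5c*-KO males lay within the range of the females.

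The letter in the sample label went with the levels of 6 of the 7 factors. In a fit with the letter as a term beside the 4 group means, a comparison chosen after the values were seen, 6 of 7 passed q under 0.1, where 23.6% of all genes tested passed. *Ptbp2*, the neuronal polypyrimidine tract-binding protein, had 137 to 148 CPM (median 144) in the 8 animals of letter D and 154 to 166 CPM (median 159.7) in the 8 of letter E. No animal of letter E reached down to one of letter D, as was the case in either direction for 2.81% of all genes. The Log2FC of E against D was 0.15 (standard error 0.0235, interval 0.10 to 0.20, q = 0.000124 by edgeR's test), or 10.7%.

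*Nova1* and *Rbfox1* went the other way. *Nova1* had 55.2 to 65.5 CPM (median 62.7) in letter D and 47.5 to 62.1 CPM (median 55.4) in letter E, a Log2FC of -0.20 (standard error 0.0471, q = 0.00516). *Rbfox1* had 226 to 243 CPM (median 238) in letter D and 206 to 241 CPM (median 222) in letter E, a Log2FC of -0.10 (standard error 0.0249, q = 0.00944). Within each of the 4 groups, every animal of letter E was below every animal of letter D for both genes, and above for *Ptbp2*. The share of all genes separated by letter within each group was not computed, so how common this is cannot be told. An exact two-sided permutation of the letters within groups gave p = 0.00174 for *Ptbp2* and for *Rbfox1*, the smallest that its 576 relabellings allow, and p = 0.00694 for *Nova1*. These 3 genes kept their calls in each fit that left out 1 animal.

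The calls of *Srrm2*, *Srrm1*, and *Srrm4* by letter depended on single animals. *Srrm2* was higher in letter E by 0.14 (standard error 0.0486, q = 0.0486), *Srrm1* by 0.10 (standard error 0.0361, q = 0.0706), and *Srrm4* by 0.08 (standard error 0.0343, q = 0.0999). *Srrm2* lost this call without *Kdm5c*-KO male 2E (q = 0.117), 3E (q = 0.109), or 6D (q = 0.113). *Srrm1* lost it in 7 of the 16 fits that left out 1 animal each, namely without WT male 1E, any *Kdm5c*-KO male, or WT female 3D or 5E (q from 0.104 to 0.192). *Srrm4* lost it in 12 fits (q up to 0.287) and kept it only without WT male 1E or 5D, WT female 4E, or *Kdm5c*-HET female 6E, and it lost it as well with DESeq2's size factors (q = 0.106) and without the filter on low counts (q = 0.163). The exact permutation gave p = 0.0608 for *Srrm2* and 0.0694 for *Srrm1* and *Srrm4*. *Srrm3* did not pass, at 0.03 (standard error 0.0270, interval -0.02 to 0.09, q = 0.450). Its choice as a changed gene favours a small spread within groups, of which a difference by letter is part. Nothing is therefore read from this value.

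**Figure D5:**
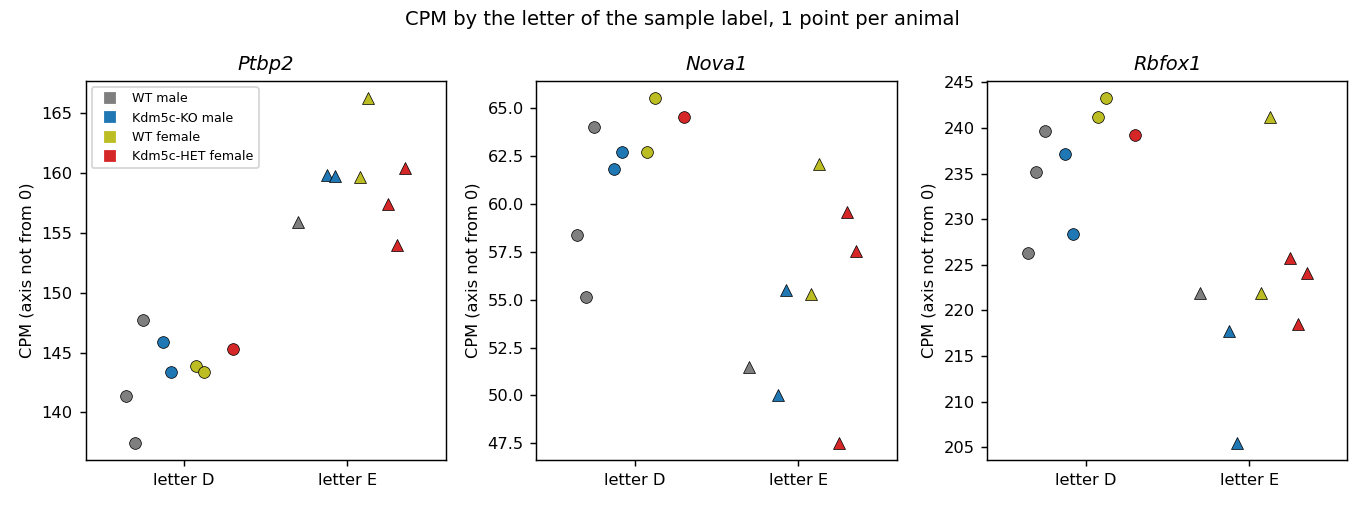
CPM (vertical axes, not from 0) of *Ptbp2*, *Nova1*, and *Rbfox1* in the 8 animals of letter D and the 8 of letter E, with 1 point per animal coloured by group. For *Ptbp2* the letters do not overlap, 137 to 148 against 154 to 166 CPM, while for *Nova1* and *Rbfox1* they overlap across groups but not within any group.

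Some marker genes moved with the letter too. Of the 35 cell type markers listed, only the 8 that the study's list of changed genes pairs with an identifier could be examined, and that list was chosen on these samples. By letter, 6 of the 8 passed q under 0.1, against 23.6% of all genes, with the progenitor marker *Nes* higher in letter E (39.0 to 57.4 against 33.6 to 39.3 CPM) and the other 5 lower. They included *Aqp4* of astrocytes (120.3 to 152 against 142 to 170.5 CPM) and the neuronal *Rbfox3* (216 to 253 against 237 to 275 CPM). The choroid plexus markers *Ttr* and *Aqp1* summed to 1.48 to 86.6 CPM in letter E and 2.23 to 205 CPM in letter D, and the blood markers to 60.2 to 108 and 76.6 to 133 CPM. Neither blood marker passed (*Hbb-bs*, q = 0.118, and *Hba-a1*, q = 0.584). The part of the markers in the differences of the splicing factors was not tested, and neither was what the letter stands for. With the letter as a covariate, 0 of the 6 factors other than *Srrm3* passed in any genotype contrast, where 8.22% of all genes passed in males, 0.879% in females, 0.134% in the difference between the sexes, and 6.71% in the mean. The male Log2FC was then 0.12 (q = 0.146) for *Srrm4*, 0.056 (q = 0.718) for *Nova1*, -0.032 (q = 0.689) for *Rbfox1*, and 0.027 (q = 0.725) for *Ptbp2*.

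Other splicing regulators could be examined only where the study's list of changed genes pairs a symbol with an identifier, and that list was chosen on these samples. It covers 3 of the 41 regulators listed. *Rbm20*, a regulator best known from heart muscle, was low, at 2.24 to 4.30 CPM (50 to 115 counts) in WT males and 5.30 to 6.24 CPM (133 to 177 counts) in *Kdm5c*-KO males. The groups did not overlap, and the Log2FC was 0.78 (standard error 0.152, q = 0.00522 by edgeR's test), a call kept without each animal in turn. Being on a list chosen on these libraries favours such a call, so it is given as a description. In females *Rbm20* had 3.63 to 4.43 CPM in WT and 4.72 to 5.23 CPM in *Kdm5c*-HET animals, again without overlap, with a Log2FC of 0.28 (-0.04 to 0.59, q = 0.876). The difference between the sexes was 0.50 (q = 0.763).

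*Rbfox3*, the neuronal relative of *Rbfox1* known as NeuN, had 244, 271, 275, and 269 CPM in WT males 1E, 2D, 5D, and 7D and 216, 224, 242, and 251 CPM in *Kdm5c*-KO males 2E, 3E, 4D, and 6D. Only WT male 1E fell among the mutants. The Log2FC was -0.19 (standard error 0.0532, q = 0.0642), a call lost without WT male 2D (q = 0.175), 5D (q = 0.204), or 7D (q = 0.159) and without *Kdm5c*-KO male 2E (q = 0.221) or 3E (q = 0.182). The call was also lost when only the 8 males were fitted (q = 0.147), and with the letter as a covariate q was 0.0151. In females the Log2FC was -0.09 (q = 0.908). In the mean over the sexes it was -0.14 (q = 0.0490). That call was lost in 7 of the 16 fits that left out 1 animal each (q from 0.104 to 0.120). *Snrpn*, an imprinted gene for a core splicing protein, had a Log2FC of -0.18 in males (q = 0.123) and -0.055 in females (q = 0.977). The male value passed by DESeq2 (q = 0.0972), without the filter on low counts (q = 0.0263), with the letter as a covariate (Log2FC = -0.14, q = 0.0109), and without WT male 1E, *Kdm5c*-KO male 4D or 6D, or WT female 5E (q from 0.0606 to 0.0973). *Snrpn* and *Rbfox3* were lower in letter E (Log2FC = -0.17, q = 4.69e-05, and -0.12, q = 0.00625), and *Rbm20* did not pass (q = 0.923). As for *Rbm20*, being on the study's list of changed genes favours calls of *Rbfox3* and *Snrpn* between genotypes, so these are given as a description. RefSeq places other genes over all 3 regulators, among them *Snurf* and *Snhg14* over *Snrpn*.

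The same 8 markers were examined in *Kdm5c*-KO males, where 7 passed q under 0.1, all but *Aqp4* (q = 0.115), against 5.24% of all genes. Since the study's list of changed genes decided which markers had an identifier, this count was fixed in part by that choice and nothing is read from it. *Hba-a1* (Log2FC = -0.59, q = 0.00131) and *Rbfox3* itself fell, and *Nes* rose (0.37, q = 0.0824). *Nes* had 53.6 and 57.4 CPM in *Kdm5c*-KO males 2E and 3E. In 4D and 6D it had 38.3 and 39.3 CPM, within the WT male range of 33.6 to 41.0 CPM. The choroid plexus markers summed to 1.98 to 2.82 CPM in *Kdm5c*-KO males and 1.48 to 205 CPM in WT males, and the blood markers to 60.2 to 97.8 and 107 to 133 CPM. In *Kdm5c*-HET females 0 of the 8 passed (lowest q = 0.772), where 0.509% of all genes passed. The part of other cells in the male values was not tested.

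Of 19 genes known for neuronal microexons, only *Ptprd*, a receptor phosphatase that organizes synapses, could be paired with an identifier. It had 333 to 363 CPM in WT males, 362 to 376 CPM in *Kdm5c*-KO males, 370.0 to 396 CPM in WT females, and 386 to 409.9 CPM in *Kdm5c*-HET females. Its Log2FC was 0.11 in males (q = 0.141) and 0.038 in females (q = 0.976), with overlap in both. The male value passed by DESeq2 (q = 0.0693), with the letter as a covariate (q = 0.0843), and without WT male 2D (q = 0.0704). The identifier of *Ptprd* came from the study's list of changed genes, which was chosen on these samples. Being on it favours such calls, so they are given as a description. Between WT females and WT males it was 0.17 (standard error 0.0376, q = 0.0348 by edgeR's test) without overlap, a call lost without WT male 5D (q = 0.120) or WT female 5E (q = 0.119). Counts per gene do not show which exons were included, so inclusion of microexons was not analysed here.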

How the data were processed

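Libraries of poly(A) RNA were strand-specific. Per the study, reads were mapped to mm10 with STAR 2.5.3a, duplicates and multiply mapped reads were dropped, and featureCounts (Subread 1.5.0) did the counting. The authors deposited the resulting read counts for each Ensembl gene, not normalized. The study's supplementary gene table paired symbols with identifiers, and RefSeq on GRCm38.p6 gave coordinates by symbol. Columns of the authors' own fold changes and p-values in that table were not used. Between animals of a group (24 pairs), chi-square per gene was 2.89 to 15.2, so no pair looked like 1 library sequenced again. P-values measure the spread between these animals.

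The main fit was edgeR 4.0.16 in R 4.3.3, with filterByExpr, TMM, and quasi-likelihood tests on all 16 animals, using a mean for each group without covariates. Benjamini-Hochberg adjustment covered the 17866 genes tested, and a gene passed at an adjusted p-value (q) under 0.1, the threshold of the study. Exact tests and differences within letters were on log2 CPM without a prior count, while for correlations and spreads the prior count was 2. The script was tested on simulated counts before use. The alternatives were DESeq2 1.42.0, edgeR with DESeq2's size factors, fits unfiltered or with a minimum of 10 counts in each animal, fits of a contrast's own animals, the label letter as a covariate, the label number as a block, a threshold of 0.05, and leaving out single animals. The test of the letter, the contrasts within letters, and the block were added after the values were seen.

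The 7 genes, the lists, and the comparisons were chosen with earlier results of these data known. The genes named are the 7, every listed gene with an identifier, and the 5 genes most correlated with *Srrm3*. Of these, 2 genes are not reported here. The expression of *Kdm5c*, promoter and protein sequences, and levels per length are not analysed here.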

Additional observations from a re-analysis of the deposited data

Results flagged for a closer look

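*Srrm3* in WT male 2D stood apart from the other WT males. It had 75.5 CPM beside 73.4 to 73.7 CPM in the other 3, and its gap to the nearest of them was 0.863 of the range of the group, above the limit of Dixon's test for 4 samples. The range of the group was narrow, and 75.5 CPM lay below every WT female. *Rbfox1* in WT female 4E was the other value set apart, at 222 CPM beside 241 to 243 CPM in the other WT females, with a gap of 0.902 of the range. Across the 7 genes and 4 groups, 28 sets of 4 animals were examined in this way and 2 were set apart, while chance gives about 1 in 20.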

How the results depend on the processing

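Over 564 alternative values of the 6 genes other than *Srrm3* in the genotype contrasts, 56 had the opposite sign, 0 of these called, and 2 passed the threshold, both for *Srrm4* without WT female 5E. The Log2FC of *Srrm4* in females was -0.00125 with DESeq2, -0.00183 with its size factors, -5.78e-06 without the filter, and -0.0181 with the letter covariate. With the letter covariate, the value was -0.0068 for *Srrm2* and -0.0022 for *Srrm1* in males, -0.0251 for *Ptbp2* in females, and -0.0247 for *Srrm2* and 0.0017 for *Nova1* in the mean over the sexes. Leaving out each animal gave -0.029 to 0.13 (*Srrm2*), -0.0205 to 0.0872 (*Srrm1*), and -0.0404 to 0.0677 (*Nova1*) in males, and -0.0355 to 0.0585 (*Srrm4*), -0.0346 to 0.0082 (*Srrm2*), and -0.0235 to 0.0481 (*Ptbp2*) in females. For the difference between the sexes it gave -0.0193 to 0.142 (*Srrm2*) and -0.0216 to 0.0435 (*Rbfox1*), for the mean -0.0193 to 0.0586 (*Srrm2*) and -0.0342 to 0.0182 (*Srrm1*), and for *Rbm20* by letter -0.0572 to 0.0229.

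Counts over all genes moved more. With DESeq2, 14 genes were lower in *Kdm5c*-HET females, 20 and 6 were higher and lower in the difference between the sexes, and 759 and 759 between WT females and males. Without the filter, 469 were lower in *Kdm5c*-KO males, 194 and 34 higher and lower in *Kdm5c*-HET females, 44 and 36 in the difference, 418 lower in the mean, and 763 higher in WT females. With only the animals of a contrast, 147 were lower in *Kdm5c*-KO males and 1 was lower in *Kdm5c*-HET females. With the letter covariate, 611 were lower in *Kdm5c*-KO males, 144 and 13 higher and lower in *Kdm5c*-HET females, 18 and 6 in the difference, and 825 and 854 in WT females. At a threshold of 0.05, 134 were lower in *Kdm5c*-KO males, 1 in *Kdm5c*-HET females, and 108 in the mean, and 185 and 163 higher and lower in WT females. Leaving out each animal gave 107 to 424 genes lower in *Kdm5c*-KO males, 50 to 84 higher and 0 to 7 lower in *Kdm5c*-HET females, 0 to 1 lower in the difference, 123 to 502 lower in the mean, and 35 to 672 higher and 27 to 571 lower in WT females. The cause was not tested, except that the stricter threshold passes fewer genes by construction.

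The labels give 7 of 9 numbers to 2 animals each, and nothing in them says that a number pairs animals. Deviations from the group means correlated by -0.371 to 0.0554 within these 7 pairs. Each pair joins an animal of letter D with one of letter E, and 23.6% of all genes passed by letter. The pair at -0.371, *Kdm5c*-HET females 9D and 9E, also shares a group mean. Both can lower a correlation, so these values cannot tell whether numbers pair animals. As the labels do not say so, the numbers were not taken to pair animals. A fit with the number as a replicate block, added after the values were seen, left 4 residual degrees of freedom. It had no letter term, so differences between animals of a number are also differences between letters D and E. It called 118 genes higher and 5 lower in *Kdm5c*-KO males, 0 in either direction among *Kdm5c*-HET females, 0 higher in the difference, 41 and 0 in the mean, and 7 and 7 in WT females. The Log2FC was -0.0173 for *Nova1* in males, 0.331 for *Srrm2* and 0.148 for *Srrm1* in females, -0.214 for *Srrm2*, -0.0726 for *Srrm1*, -0.0339 for *Ptbp2*, and 0.0251 for *Rbfox3* in the difference, and 0.112 for *Srrm1* in the mean, 0 of these called. *Nova1* kept its sign but moved further, from -0.10 to -0.542 in females (unadjusted p = 0.0212, q = 0.894), from 0.107 to 0.525 in the difference (unadjusted p = 0.0246, q = 0.997), and from -0.047 to -0.280 in the mean (q = 0.617). With the letter as a covariate and no block, *Nova1* in females was at -0.052 (q = 0.902 by edgeR's test). Other values kept their sign and moved as well under the block. Among them, *Srrm2* went from 0.012 to 0.223 in the mean (q = 0.617). *Ptbp2* went from 0.010 to 0.169 in females (q = 0.898) and from 0.037 to 0.152 in the mean (q = 0.687). In females *Srrm4* went from 0.0014 to 0.048 (q = 0.959), *Rbfox3* from -0.090 to -0.275 (q = 0.894), and *Snrpn* from -0.055 to -0.236 (q = 0.894). Lost under the block were the calls of *Rbfox3* and *Rbm20* in males and in the mean (q from 0.218 to 0.605) and of *Srrm2*, *Srrm4*, and *Ptprd* in WT females (q from 0.252 to 0.275). The fit of only a contrast's animals was not run for the difference between the sexes and for the mean, which need all 4 groups. Depth did not limit the 7 genes, whose smallest count was 1115, but *Rbm20* had as few as 50 counts.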
